A study of Mus musculus with 20 samples.

Results

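The proteoglycans of the mouse abdominal aorta described here are the products of 9 genes, biglycan (Bgn), asporin (Aspn), fibromodulin (Fmod), lumican (Lum), Prelp, osteoglycin (Ogn), versican (Vcan), aggrecan (Acan) and perlecan (Hspg2), chosen by symbol. They are 9 of 15346 genes with a listed annotated transcript, and all 9 were among the 12645 genes tested. Of their 30 annotated transcripts, 21 were listed and 18 had a high enough mean to enter the test per transcript. RNA was sequenced from 5 mice labelled KO given angiotensin II (KO Ang II), 5 wild-type mice given angiotensin II (WT Ang II) and 5 wild-type mice given saline (WT saline), and angiotensin II was given at 500 ng per kg per min. Angiotensin II narrows arteries, and its infusion is used to make mice hypertensive. The series is titled for DAPK1, a kinase activated by calcium and calmodulin, as a regulator of vessel constriction. The labels give no allele, strain, sex, age or length of infusion. Libraries are called by their titles, which end in an animal number. They are KOAng_II402, KOAngII537, KOAngII560, KOAngII612 and KOAngII628 for KO Ang II, WTAng_II519, WTAng_II536, WTAngII568, WTAngII580 and WTAngII581 for WT Ang II, and WTNS_369, WTNS_373, WTNS_523, WTNS_547 and WTNS_550 for WT saline, and the values of a group are given in this order. A further 5 libraries carry KO in their title and genotype and wild type in their description, were given saline, and have tables of 2025 transcripts that list no transcript of the 9 genes, so they enter no comparison.

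A proteoglycan is a core protein that carries long sulfated sugar chains, the glycosaminoglycans. In the artery wall the large aggregating proteoglycans versican and aggrecan bind hyaluronan and hold water between the muscle layers. The small leucine-rich proteoglycans bind collagen fibrils and growth factors, and perlecan sits in the basement membranes of smooth muscle and endothelium.

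Versican is made in several lengths, set by whether its RNA keeps either of a pair of large exons that code for the chondroitin sulfate attachment regions. The junctions that tell the listed versican transcripts apart are shown because the results per transcript turn on them. They are read in the direction of transcription on the minus strand of chromosome 13 (GRCm38), with 15 bases on each side, the upstream exon in lower case and the downstream exon in capitals.
Vcan-203, exon 6 to exon 7: cctactgctttaaacCTAAACAGAATATAT
Vcan-203, exon 7 to exon 8: gagaaaacaagacagGTCGATTGAGTGATA
Vcan-206, exon 6 to exon 7: cctactgctttaaacGTCGATTGAGTGATA
Vcan-201, exon 6 to exon 7: cctactgctttaaacGACCTGATCTCTGCA
The upstream exon of 294 nt ends at position 89712205. Vcan-203 joins it to the exon of 2880 nt, which starts at 89705797, and that exon to the exon of 5217 nt, which starts at 89693501. Vcan-206 skips the exon of 2880 nt, and Vcan-201 skips both and joins the 294 nt exon to the exon of 114 nt that starts at 89685192. In the usual nomenclature these are the V0, V1 and V3 forms. Vcan-202, which keeps the 2880 nt exon alone (the V2 form), was not listed.

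The level of Bgn went with that of Fmod and with that of Vcan from animal to animal, as shown further on. The promoters of these 3 genes are printed for that reason. Each runs from 250 bases before to 50 bases after the RefSeq start (GRCm38.p6), and capitals mark matches to the motifs searched.
Bgn (chrX:73483351-73483650, plus strand): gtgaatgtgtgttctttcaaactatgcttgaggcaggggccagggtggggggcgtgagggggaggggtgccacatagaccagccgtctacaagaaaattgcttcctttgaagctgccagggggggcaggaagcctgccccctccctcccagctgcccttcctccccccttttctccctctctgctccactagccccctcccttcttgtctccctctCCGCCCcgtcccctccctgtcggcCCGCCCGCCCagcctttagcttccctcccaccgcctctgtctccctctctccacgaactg
Vcan (chr13:89742463-89742762, minus strand): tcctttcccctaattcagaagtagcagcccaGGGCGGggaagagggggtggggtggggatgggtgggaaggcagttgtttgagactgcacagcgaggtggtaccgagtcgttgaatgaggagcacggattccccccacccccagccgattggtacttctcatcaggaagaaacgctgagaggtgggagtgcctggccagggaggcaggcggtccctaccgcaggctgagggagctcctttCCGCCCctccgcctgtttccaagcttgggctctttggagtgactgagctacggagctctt
Fmod (chr1:134037004-134037303, plus strand): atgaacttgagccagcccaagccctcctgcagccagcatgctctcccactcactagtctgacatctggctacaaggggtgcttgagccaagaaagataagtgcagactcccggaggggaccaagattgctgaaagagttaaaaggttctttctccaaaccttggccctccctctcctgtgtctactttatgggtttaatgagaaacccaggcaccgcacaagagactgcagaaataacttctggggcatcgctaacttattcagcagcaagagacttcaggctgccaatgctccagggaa
Searched on both strands, with overlapping matches counted, were the TATA box as TATAAA, the motif of SP1 family factors as GGGCGG, the MCAT motif as CATTCC, a SMAD motif as CAGACA, and the CArG box bound by serum response factor. GGGCGG or its complement matched 3 times in Bgn, 2 times in Vcan and 0 times in Fmod, and 35.7% of all 32851 promoters in the table hold it. The TATA, MCAT, SMAD and CArG motifs had 0 matches in these 3 windows, against 13.6%, 14.7%, 21% and 1.63% of all promoters. The table matched 8 of the 9 genes. No motif of the 5 was common to the 3 windows, whose GC content was 63.7% in Bgn, 61.0% in Vcan and 51.0% in Fmod, beside a median of 52.7% over all promoters.

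Values are FPKM, fragments scaled to transcript length and library size, summed over the annotated transcripts of a gene. The depth worked out from the steps of the values was 58.97 to 74.45 megareads in the 15 libraries, so that 1 read on a transcript of 1 kb was worth 0.0134 to 0.0170 FPKM. Smooth muscle markers, 9 of 9 tested, summed to 5567 to 10070 FPKM in the libraries labelled KO Ang II, 6967 to 14540 in WT Ang II and 5732 to 12900 in WT saline. Intestinal markers, 7 of 10 tested, summed to 21.9 to 50.2 FPKM in every library labelled KO Ang II and to 18.2 and 17.9 FPKM in WTAngII580 and WTAngII581, against 1.15 to 3.58 in the other 3 WT Ang II libraries and 1.88 to 5.59 in WT saline. White adipocyte markers, 7 of 7 tested, summed to 2190 to 7306, 1672 to 5710 and 2285 to 7984 FPKM in the same order of groups, and brown adipocyte markers, 6 of 7 tested, to 277.7 to 1995, 108.0 to 2058 and 472.2 to 2685 FPKM. Dapk1 had 4.997 to 13.8 FPKM in the libraries labelled KO Ang II, against 3.96 to 19.9 FPKM in WT Ang II and 9.48 to 15.4 FPKM in WT saline. The targeted gene thus overlapped between the groups, with a limma difference of -0.22 (SE 0.32, Benjamini-Hochberg adjusted p = 0.847) on the log2(FPKM + 1) scale for KO Ang II relative to WT Ang II and of -0.50 (SE 0.32, adjusted p = 0.738) against WT saline. With the allele not given in the labels, a sum over the whole gene cannot check it, and the group is called by its label throughout.

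Bgn had the highest level in 15 of 15 libraries, with a median of 1687 FPKM, and made up 67.6% to 84.5% of the summed FPKM of the 9 genes, which was 1472 to 3352 per library. Ogn came next in 15 of 15 libraries, with a median of 292.6 FPKM. Lum (66.4 FPKM) and Fmod (66.0 FPKM) could not be ordered, since Lum was the higher in 9 of 15 libraries. Aspn (23.7 FPKM) and Vcan (18.6 FPKM) followed, Aspn being the higher in 13 of 15. Acan (4.72 FPKM), Prelp (2.60 FPKM) and Hspg2 (1.996 FPKM) had the lowest medians. The sum of Hspg2 came mostly from a noncoding transcript of 820 nt (a mean of 68.0%), and a long coding transcript was not listed, as described further on. The median of Prelp hides a split described further on, since its values ran from 0.432 to 171 FPKM with a mean of 53.7 FPKM. Prelp lay above Hspg2 in 8 of 15 libraries and below Acan in 7 of 15, so these neighbours in the order did not separate.

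**Figure D1:**
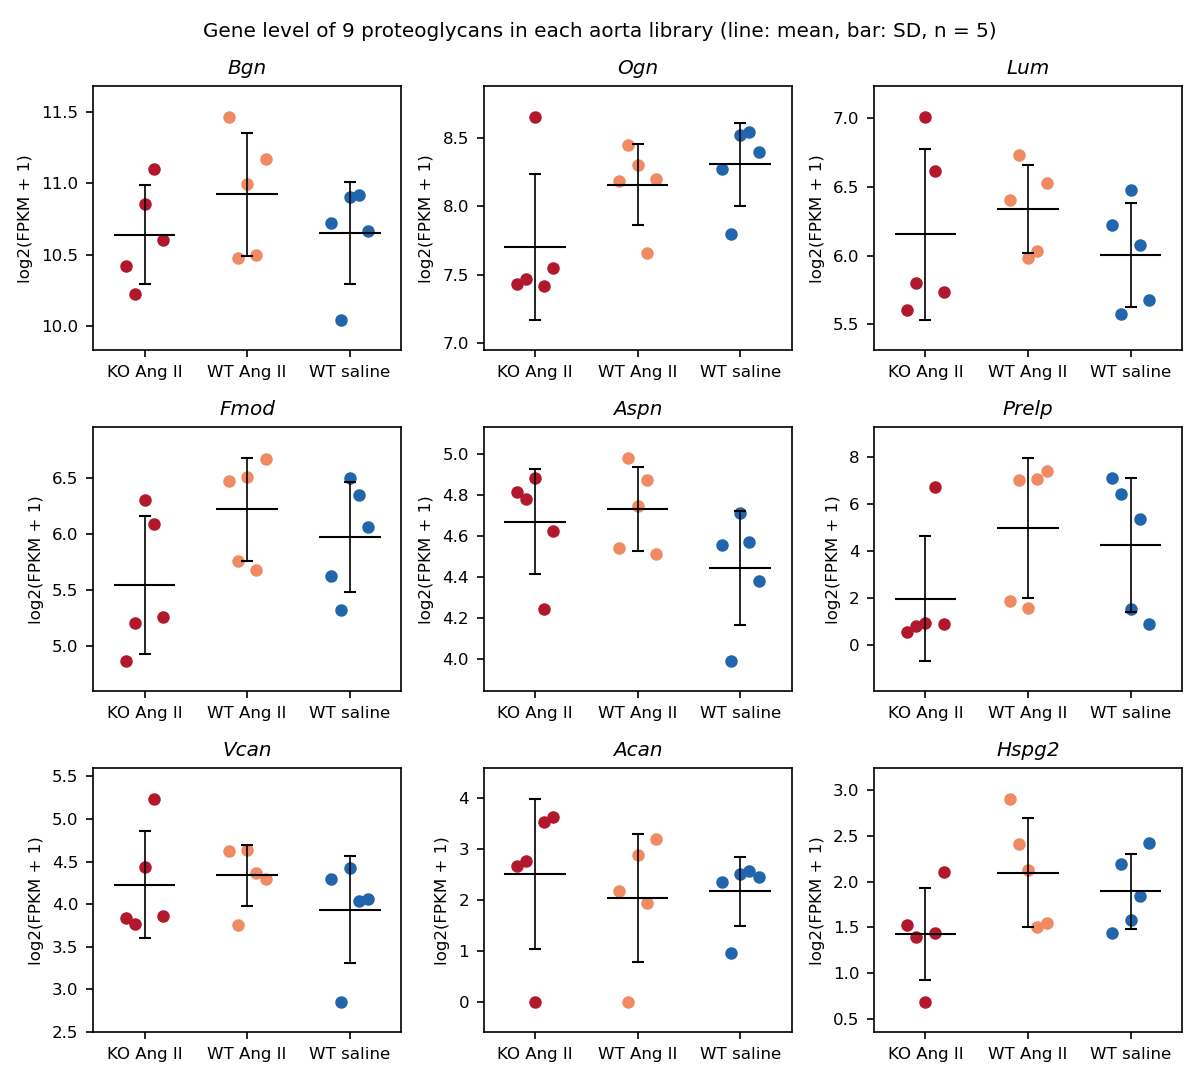
Gene level of the 9 proteoglycans as log2(FPKM + 1) on the y axis, 1 point per animal, in KO Ang II, WT Ang II and WT saline (n = 5 each), with the group mean as a line and the SD as a bar. The groups overlap for every gene, Prelp splits into a high and a low set in each group, and KOAngII560 lies far above the other 4 for Ogn.

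No proteoglycan gene passed the limma test (Benjamini-Hochberg adjusted p under 0.05 over 12645 genes) in any of the 3 comparisons. In KO Ang II relative to WT Ang II, 0 of 9 passed, beside 0.0% of all genes. Here 8 of the 9 differences were negative and 1 positive, beside 51.4% and 48.6% of all genes, with a median of -0.28 beside -0.01 over all genes on the log2(FPKM + 1) scale, and 2 of 9 had an unadjusted p under 0.05, beside 7.94%. In KO Ang II against WT saline, 0 of 9 passed, beside 0.103% of all genes (13 genes, 5 of them intestinal markers). The differences were 4 positive and 5 negative, beside 52.7% and 47.3% of all genes, with a median of -0.01 beside 0.02 over all genes, and 1 of 9 had an unadjusted p under 0.05, beside 8.37%. In WT Ang II against WT saline, 0 of 9 passed, beside 0.0% of all genes. Of the 9 differences 7 were positive and 2 negative, beside 52.6% and 47.4% of all genes, with a median of 0.27 beside 0.01, and 0 of 9 had an unadjusted p under 0.05, beside 4.88%. The groups overlapped for 9 of 9 genes in each comparison, while they did not overlap for 1.12%, 1.83% and 0.996% of all genes in the same order. The comparisons share libraries, so their differences are not independent of each other. The p-values set a difference of group means against the spread between animals within the groups. KO Ang II and WT libraries also had different lists of transcripts, as given under the processing.

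**Figure D2:**
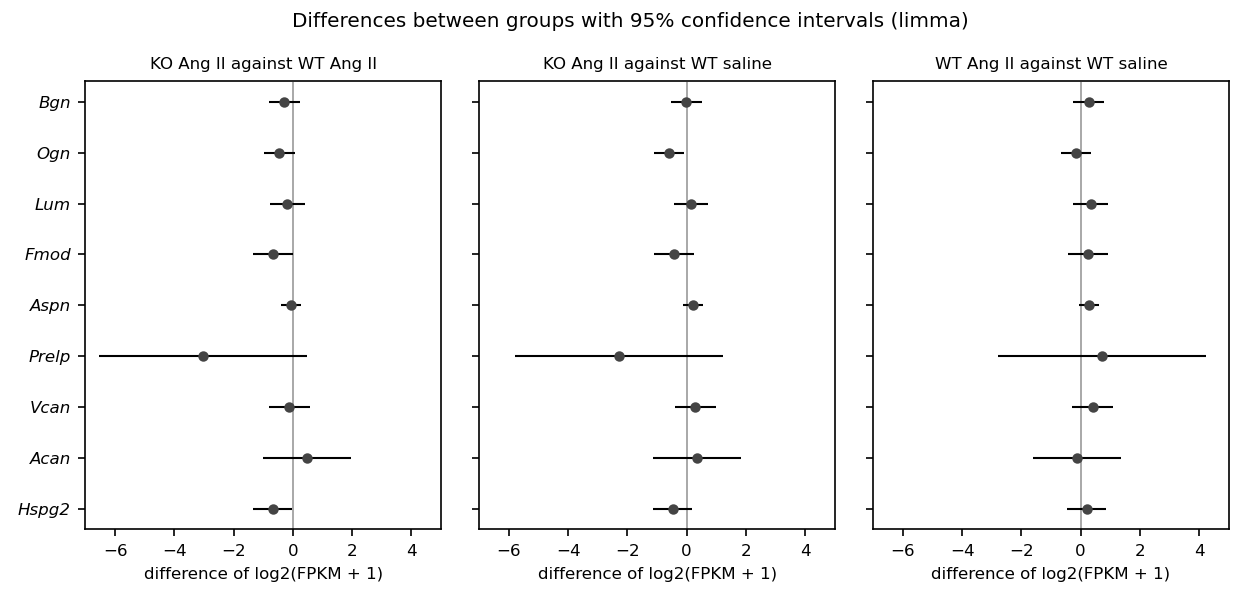
Difference of log2(FPKM + 1) on the x axis for each of the 9 genes (rows) in the 3 comparisons, with the limma estimate as a point and its 95% confidence interval as a line. The widest intervals belong to Prelp and Acan, and the intervals of Fmod and Hspg2 (KO Ang II relative to WT Ang II) and of Ogn (KO Ang II against WT saline) end just short of 0 without passing the adjusted threshold.

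Bgn, Aspn, Fmod, Lum, Prelp and Ogn belong to the small leucine-rich proteoglycans. Bgn and Aspn are of class I, and their main transcripts share the lengths of 5 of 8 exons (113, 214, 111, 94 and 139 nt for exons 3 to 7).

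Biglycan carries chondroitin or dermatan sulfate chains, binds collagen and TGF-beta, and is encoded on chromosome X (73483602 to 73495933, plus strand, GRCm38). Bgn had 1371, 1197, 1856, 2196 and 1553 FPKM in KO Ang II, against 2831, 1426, 2038, 1446 and 2307 FPKM in WT Ang II, and 1687, 1056, 1917, 1936 and 1623 FPKM in WT saline. The highest values were those of WTAng_II519 and WTAngII581, but WTAng_II536 and WTAngII580 lay below 4 of the 5 WT saline libraries. The limma difference for KO Ang II relative to WT Ang II was -0.28 (95% confidence interval -0.79 to 0.23, adjusted p = 0.727), and that for WT Ang II against WT saline was 0.27 (-0.24 to 0.78, adjusted p = 0.941). With 1 library left out the first ranged from -0.40 to -0.14 and the second from 0.12 (without WTNS_373) to 0.38, and the second was 0.0926 without the animals numbered below 500. Per transcript, the coding Bgn-201 held a mean of 90.9% of Bgn FPKM in KO Ang II, 91.5% in WT Ang II and 91.9% in WT saline, and the rest was noncoding or intron-retaining. One of these, the intron-retaining Bgn-204, stood at 0.814 FPKM in KOAngII628, 0.461 FPKM in WTAng_II536 and 0.703 FPKM in WTNS_369. It was at 5.90 to 17.6 FPKM in the other 12 libraries, so the low value came in 1 library of each group.

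Asporin, which binds collagen and TGF-beta and carries no glycosaminoglycan chain, varied least of the 9 genes (coefficient of variation 17.8% over the 15 libraries). Aspn (chromosome 13, 49544443 to 49567565, plus strand) had 27.2, 26.5, 28.5, 17.96 and 23.7 FPKM in KO Ang II, 22.3, 30.6, 25.8, 28.3 and 21.8 FPKM in WT Ang II, and 22.5, 14.9, 25.3, 22.8 and 19.8 FPKM in WT saline. The lowest libraries of KO Ang II and WT saline were KOAngII612 and WTNS_373, and the groups overlapped. The difference was -0.06 for KO Ang II relative to WT Ang II (95% confidence interval -0.40 to 0.27), which bounds a loss at 0.40, and 0.29 for WT Ang II against WT saline (-0.05 to 0.63, adjusted p = 0.941; 0.18 to 0.36 with 1 library left out).

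Fibromodulin, lumican and Prelp belong to class II. Fibromodulin and lumican carry keratan sulfate and limit the lateral growth of collagen fibrils. Fmod (chromosome 1, 134037254 to 134048277, plus strand) had 28.1, 35.9, 77.8, 67.2 and 37.3 FPKM in KO Ang II, against 88.0, 53.1, 90.1, 50.2 and 101 FPKM in WT Ang II, and 48.3, 38.9, 89.4, 80.7 and 66.0 FPKM in WT saline. KOAng_II402, KOAngII537 and KOAngII628 were the lowest of the 15, and KOAngII560 and KOAngII612 lay within the WT Ang II range. The mean was 49.3 FPKM in KO Ang II and 76.5 FPKM in WT Ang II, a difference of -0.67 (SE 0.31, 95% confidence interval -1.35 to -0.004 on the log2 scale) that did not pass (limma adjusted p = 0.622, two-sided exact permutation p = 0.103). The 3 low libraries had 8113, 5567 and 7243 FPKM of smooth muscle markers and 1814, 1181 and 1995 FPKM of brown adipocyte markers, against 10070 and 9295 FPKM and 277.7 and 604.9 FPKM in KOAngII560 and KOAngII612. With marker means of 3 other tissues as covariates (skeletal muscle, sympathetic neurons, brown fat) the difference was -0.23. Against the 2 WT Ang II libraries with intestinal transcripts it was -0.63. In a bulk sample, fewer cells of a type and less RNA per cell cannot be told apart.

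Lum (chromosome 10, 97565128 to 97572703, plus strand) had 47.7, 54.8, 128, 96.8 and 52.4 FPKM in KO Ang II, against 83.9, 105, 62.4, 64.7 and 91.5 FPKM in WT Ang II, and 73.6, 46.7, 88.0, 66.4 and 50.1 FPKM in WT saline. The libraries labelled KO Ang II spread widest, with KOAngII560 the highest of all 15 and KOAng_II402, KOAngII537 and KOAngII628 among the 5 lowest. The difference for KO Ang II relative to WT Ang II was -0.18 (95% confidence interval -0.77 to 0.40, adjusted p = 0.848), and with 1 library left out it ranged from -0.40 (without KOAngII560) to -0.0480 (without KOAng_II402).

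Prelp is a basic protein with no glycosaminoglycan chain that binds heparan sulfate and collagen and anchors basement membranes to the connective tissue around them. Its gene (chromosome 1, 133910304 to 133921414, minus strand) ends 116 kb before Fmod starts. Prelp was the most variable of the 9 genes (coefficient of variation 119.7%). Its coding transcript Prelp-201 was at 103 FPKM in KOAngII612 and at 0.0513, 0.0812, 0.328 and 0.0787 FPKM in the other 4 libraries labelled KO Ang II. It had 130.0, 131 and 171 FPKM in WTAng_II536, WTAngII580 and WTAngII581 but 0.858 and 0.477 FPKM in WTAng_II519 and WTAngII568. In WT saline, WTNS_369, WTNS_373 and WTNS_547 had 137, 83.7 and 39.3 FPKM, and WTNS_523 and WTNS_550 had 0.891 and 0.528 FPKM. High and low libraries stood in each group, 7 high and 8 low, with nothing between 0.891 and 39.3 FPKM. The noncoding Prelp-202 was listed at 0 in 6 of the 7 high libraries (0.818 FPKM in WTNS_547) and at 0.326 to 1.74 FPKM in all 8 low ones. The depth does not limit this contrast, since the low libraries had 13 to 213 reads on Prelp-201 and the high ones 9292 to 42723.

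**Figure D3:**
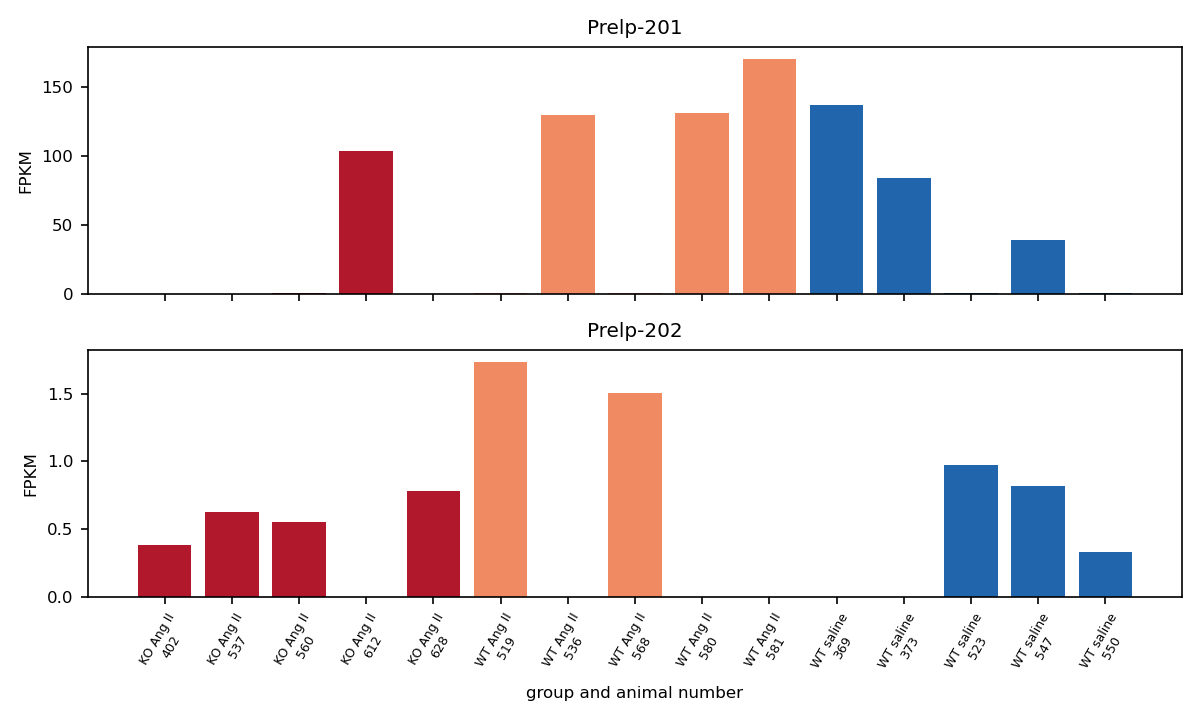
FPKM of Prelp-201 (top) and Prelp-202 (bottom) on the y axis in each of the 15 libraries, by group and animal number on the x axis. Prelp-201 is at 39.3 to 171 FPKM in 7 libraries and under 1 FPKM in the other 8, and Prelp-202 is listed at 0 in 6 of those 7.

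The number of high libraries was 1 of 5 in KO Ang II, 3 of 5 in WT Ang II and 3 of 5 in WT saline. The gene difference for KO Ang II relative to WT Ang II was -3.02 (SE 1.64, 95% confidence interval -6.54 to 0.49), with a limma adjusted p of 0.633 and a two-sided exact permutation p of 0.0556, where the smallest that 5 against 5 allows is 0.00794. By limits set with these Prelp values known, 57 transcripts were under 1 FPKM in at least 5 libraries and at 20 FPKM or more in at least 5. They made up 0.274% of the 20766 tested and 2.05% of the 2774 that reached 20 FPKM in at least 5 libraries, and 0 others split the libraries as Prelp-201 did. Between 12.2% and 15.8% of the FPKM of these libraries lies on unannotated transcripts with no gene name (MERGE identifiers), and whether Prelp reads are among them was not tested.

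Osteoglycin, also called mimecan, is the class III member and helps set collagen fibril size. Ogn (chromosome 13, 49608046 to 49624501, plus strand) had the one unadjusted p under 0.05 against WT saline. It had 172, 176, 402.7, 169.6 and 186 FPKM in KO Ang II, 291, 349, 314, 201.3 and 293 FPKM in WT Ang II, and 308, 222, 367, 373.1 and 336 FPKM in WT saline. In 4 of the 5 libraries labelled KO Ang II it lay below every WT library, and in KOAngII560 it was above every WT library. The means were 221 FPKM in KO Ang II and 321 FPKM in WT saline, a difference of -0.60 (SE 0.24, 95% confidence interval -1.12 to -0.09) that did not pass (limma adjusted p = 0.519, two-sided exact permutation p = 0.0794). Without KOAngII560 it was -0.84 (adjusted p = 0.156). Against WT Ang II the difference was -0.45 (-0.97 to 0.06, adjusted p = 0.633), and -0.69 (adjusted p = 0.304) without KOAngII560. Set against the 2 WT Ang II libraries with intestinal transcripts, which include the lowest of that group (WTAngII580), it was -0.22. KOAngII560 also had the highest adventitial fibroblast markers of all 15 libraries, 10 of 11 tested, with a sum of 2793 FPKM against 893.7 to 1423 FPKM in the other 4 libraries labelled KO Ang II, 1183 to 2492 FPKM in WT Ang II and 1164 to 1700 FPKM in WT saline. With group means taken off, fibroblast markers and Ogn had r = 0.597 over the 15 libraries (permutation p = 0.104, adjusted p = 0.371; rho = 0.454, permutation p = 0.104, adjusted p = 0.411) and r = 0.164 without the 2 farthest libraries. Within the groups r was 0.869 in KO Ang II, 0.439 in WT Ang II and -0.56 in WT saline, so the relation did not pass and rested on those 2 libraries.

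Ogn lies in a cluster of 4 leucine-rich genes within 120 kb of chromosome 13 (Ecm2, Aspn, Omd and Ogn in order, all on the plus strand), with Dapk1 11 Mb further along. The neighbours were set beside it after their values were seen. Omd (osteomodulin, a keratan sulfate proteoglycan that binds collagen) averaged 8.39 ± 3.15 FPKM in KO Ang II, 12.9 ± 2.36 in WT Ang II and 16.9 ± 3.58 in WT saline (SD, n = 5 each). Its difference for KO Ang II against WT saline was -0.96 (SE 0.20, limma adjusted p = 0.130), the smallest adjusted p of the 99 proteoglycan pathway genes tested. Ecm2 averaged 25.1 ± 7.81, 32.9 ± 6.59 and 40.5 ± 9.90 FPKM in the same order of groups, with a difference of -0.69 (adjusted p = 0.433) for KO Ang II against WT saline. Aspn, between them on the chromosome, had a difference of the other sign, 0.23 (95% confidence interval -0.11 to 0.56; 0.11 to 0.33 with 1 library left out). None of the 4 genes passed.

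Versican and aggrecan carry many chondroitin sulfate chains and bind hyaluronan through their N-terminal domain. Vcan (chromosome 13, 89655312 to 89742509, minus strand) had 13.3, 12.6, 20.6, 36.8 and 13.5 FPKM in KO Ang II, 23.7, 12.5, 23.9, 19.7 and 18.7 FPKM in WT Ang II, and 18.6, 6.22, 20.5, 15.5 and 15.7 FPKM in WT saline. The highest and the lowest library, KOAngII612 and WTNS_373, stood apart from their own groups. The difference was -0.11 (95% confidence interval -0.81 to 0.59, adjusted p = 0.934) for KO Ang II relative to WT Ang II and 0.40 (-0.29 to 1.10, adjusted p = 0.941) for WT Ang II against WT saline. With 1 library left out the second ranged from 0.13 (without WTNS_373) to 0.55, and it was 0.0692 with the marker covariates.

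By transcript, the longest form led in every group. Vcan-203, with both large exons, held 54.6% ± 4.94 of Vcan FPKM in KO Ang II, 45.8% ± 3.36 in WT Ang II and 55.3% ± 9.78 in WT saline (SD, n = 5 each). Vcan-206, with the 5217 nt exon alone, held 13.2% ± 6.23, 12.4% ± 6.25 and 11.3% ± 6.29. Vcan-201, with neither, held 6.15% ± 6.88, 12.9% ± 4.45 and 8.76% ± 8.01. The remaining share, 26.0% ± 5.61, 28.8% ± 4.803 and 24.7% ± 3.601, belonged to Vcan-208, a transcript of 861 nt and 3 exons at the 3′ end. Since the 4 transcripts share exons, their split is an estimate of the authors' program. Vcan-201 was listed at 0 in KOAng_II402, KOAngII628 and WTNS_373, and at 0.767 to 4.16 FPKM in every WT Ang II library. Its difference for KO Ang II relative to WT Ang II was -0.84 (SE 0.47, limma adjusted p = 0.712 over 20766 transcripts), and 0 of the 18 transcripts tested passed in any comparison, beside 0.00482% of all transcripts for KO Ang II relative to WT Ang II, 0.0722% for KO Ang II against WT saline and 0.00963% for WT Ang II against WT saline. An unadjusted p under 0.05 was reached by 1, 1 and 0 of the 18 in the same order, beside 6.85%, 6.64% and 5.32%.

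**Figure D4:**
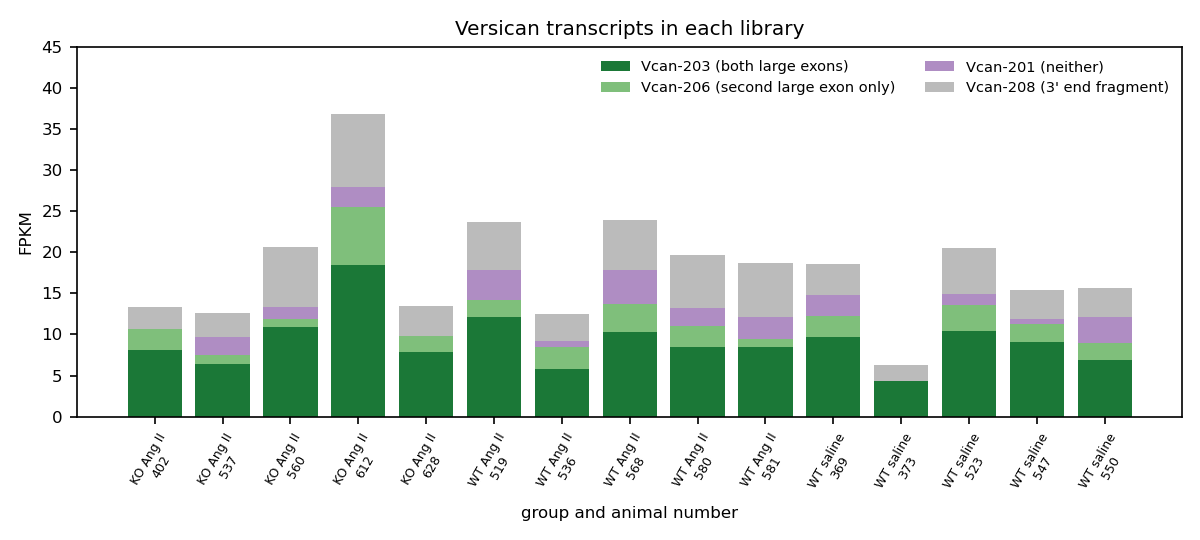
FPKM of the 4 listed versican transcripts, stacked on the y axis, in each of the 15 libraries by group and animal number. Vcan-203 is the largest part in every library, KOAngII612 has the tallest bar at 36.8 FPKM, and WTNS_373 has the shortest at 6.22 FPKM.

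Acan (chromosome 7, 79053483 to 79115099, plus strand) encodes the main proteoglycan of cartilage. It had 5.39, 5.83, 0, 10.5 and 11.3 FPKM in KO Ang II, 3.50, 0, 6.39, 2.86 and 8.23 FPKM in WT Ang II, and 4.11, 0.944, 4.72, 4.94 and 4.46 FPKM in WT saline. It was thus listed at 0 in KOAngII560 and WTAng_II536, which had 128 and 105 FPKM of Lum. The difference for KO Ang II relative to WT Ang II was 0.48 (95% confidence interval -0.997 to 1.95, adjusted p = 0.844), an interval too wide to place it. A value of 0 can be a failed estimate, so no group mean is given. Of 12 chondrocyte markers, 2 reached the filter. They summed to 178.7 to 558.7 FPKM in KO Ang II, 296.6 to 668.3 in WT Ang II and 310.2 to 771.9 in WT saline. The chondrocyte list did not enter the marker relations described further on.

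Perlecan carries heparan sulfate chains. Hspg2 (chromosome 4, 137468769 to 137570630, plus strand) had 1.87, 1.64, 0.607, 1.72 and 3.30 FPKM in KO Ang II, against 6.52, 4.32, 3.36, 1.84 and 1.93 FPKM in WT Ang II, and 1.72, 3.57, 1.996, 2.58 and 4.36 FPKM in WT saline. The 3 highest WT Ang II libraries lay above every library labelled KO Ang II, and the other two, WTAngII580 and WTAngII581, did not. The difference for KO Ang II relative to WT Ang II was -0.67 (SE 0.31, 95% confidence interval -1.33 to -0.01, limma adjusted p = 0.622, two-sided exact permutation p = 0.0556). Those last 2 are the WT Ang II libraries with intestinal transcripts, and against them alone the difference was -0.10. They are also the lowest 2 of their group, so a smaller difference follows from their values. The part of intestinal tissue in it was not tested. The FPKM sum rests on a fragment. One long coding transcript (ENSMUST00000030547, 14187 nt) was not listed. A noncoding transcript near the 3′ end (ENSMUST00000155648, 820 nt, 2 exons) held a mean of 66.0% of the sum in KO Ang II, 77.8% in WT Ang II and 60.1% in WT saline. The listed coding transcript (ENSMUST00000171332, 14176 nt) averaged 0.598 ± 0.270 FPKM in KO Ang II, 0.669 ± 0.156 in WT Ang II and 1.07 ± 0.556 in WT saline (SD, n = 5 each), under the filter for the test per transcript. By reads it held the larger part, with 244 to 1725 over the 15 libraries against 22 to 301 on the noncoding one.

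The clearest pattern of the 9 genes ran between animals within each group. With the group means taken off, Bgn and Fmod went together over the 15 libraries (Pearson r = 0.842, permutation p = 0.00048, adjusted p = 0.0158; Spearman rho = 0.814, permutation p = 0.00049, adjusted p = 0.0176). Their r was 0.837 in KO Ang II, 0.885 in WT Ang II and 0.862 in WT saline, and 0.856 over the rest when the 2 libraries farthest from the median of Bgn were left out. Bgn and Vcan also went together (r = 0.816, permutation p = 0.00088, adjusted p = 0.0158; rho = 0.771, permutation p = 0.002, adjusted p = 0.036), with r = 0.923, 0.669 and 0.936 in the same order of groups and 0.78 without the 2 farthest libraries. Vcan with Fmod did not pass (r = 0.719, permutation p = 0.00577, adjusted p = 0.0692, and rho = 0.664, permutation p = 0.0144, adjusted p = 0.173). Bgn with Fmod and Bgn with Vcan were the 2 pairs of 36 whose adjusted permutation p was under 0.05. Neighbours on a chromosome were not among them, with r = 0.483 for Aspn and Ogn (permutation p = 0.118, adjusted p = 0.396; rho = 0.511, permutation p = 0.0694, adjusted p = 0.25; r = 0.244 without the 2 farthest libraries) and r = -0.165 for Fmod and Prelp (permutation p = 0.583, adjusted p = 0.761; rho = -0.046, permutation p = 0.872, adjusted p = 0.964; r = -0.288 without them).

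The same genes went with the cell type markers of the library. Over 99 relations between marker lists and the 9 genes, 8 had an adjusted permutation p under 0.05 for Pearson r. Bgn went with smooth muscle markers (r = 0.847, permutation p = 0.00117, adjusted p = 0.0165; rho = 0.829, permutation p = 0.00121, adjusted p = 0.024; r = 0.766 without the 2 farthest libraries) and against white adipocyte markers (r = -0.922, permutation p = 0.00025, adjusted p = 0.00825; rho = -0.861, permutation p = 0.00071, adjusted p = 0.0176; r = -0.92 without them). Fmod did likewise, with r = 0.854 for smooth muscle (permutation p = 0.00024, adjusted p = 0.00825; rho = 0.771, permutation p = 0.00158, adjusted p = 0.0261; r = 0.858 without the 2 farthest) and r = -0.871 for brown adipocytes (permutation p = 4e-05, adjusted p = 0.00396; rho = -0.868, permutation p = 0.00017, adjusted p = 0.0148; r = -0.902 without them). Vcan went against white adipocyte markers (r = -0.843, permutation p = 0.00049, adjusted p = 0.0109; rho = -0.886, permutation p = 0.0003, adjusted p = 0.0148; r = -0.823 without the 2 farthest). Within the groups these 5 relations kept their sign, with r from 0.593 to 0.968 in size for Bgn, from 0.789 to 0.974 for Fmod and from 0.754 to 0.977 for Vcan. The other relations that passed were Bgn with brown adipocytes (r = -0.801, permutation p = 0.00107, adjusted p = 0.0165; rho = -0.846, permutation p = 0.00051, adjusted p = 0.0168; r = -0.735 without the 2 farthest), Fmod with white adipocytes (r = -0.792, permutation p = 0.00152, adjusted p = 0.0188; rho = -0.711, permutation p = 0.0047, adjusted p = 0.0582; r = -0.763 without them) and Acan with endothelium (r = -0.778, permutation p = 0.00055, adjusted p = 0.0109; rho = -0.675, permutation p = 0.00839, adjusted p = 0.0923; r = -0.606 without them). The last 2 did not pass by rank. Acan with endothelium takes in the 0 values of KOAngII560 and WTAng_II536, which can be failed estimates. These 2 libraries had the highest endothelial marker means of their groups (4.972 and 5.656 on the log2(FPKM + 1) scale). Bgn with endothelium passed by rank alone (rho = -0.75, permutation p = 0.00272, adjusted p = 0.0385; r = -0.722, permutation p = 0.0051, adjusted p = 0.0561; r = -0.528 without the 2 farthest). The markers and the genes share libraries and scaling, and of the markers named here the brown adipocyte ones alone were used as a covariate. The part of smooth muscle, white adipocyte and endothelial markers in the group differences was not tested.

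**Figure D5:**
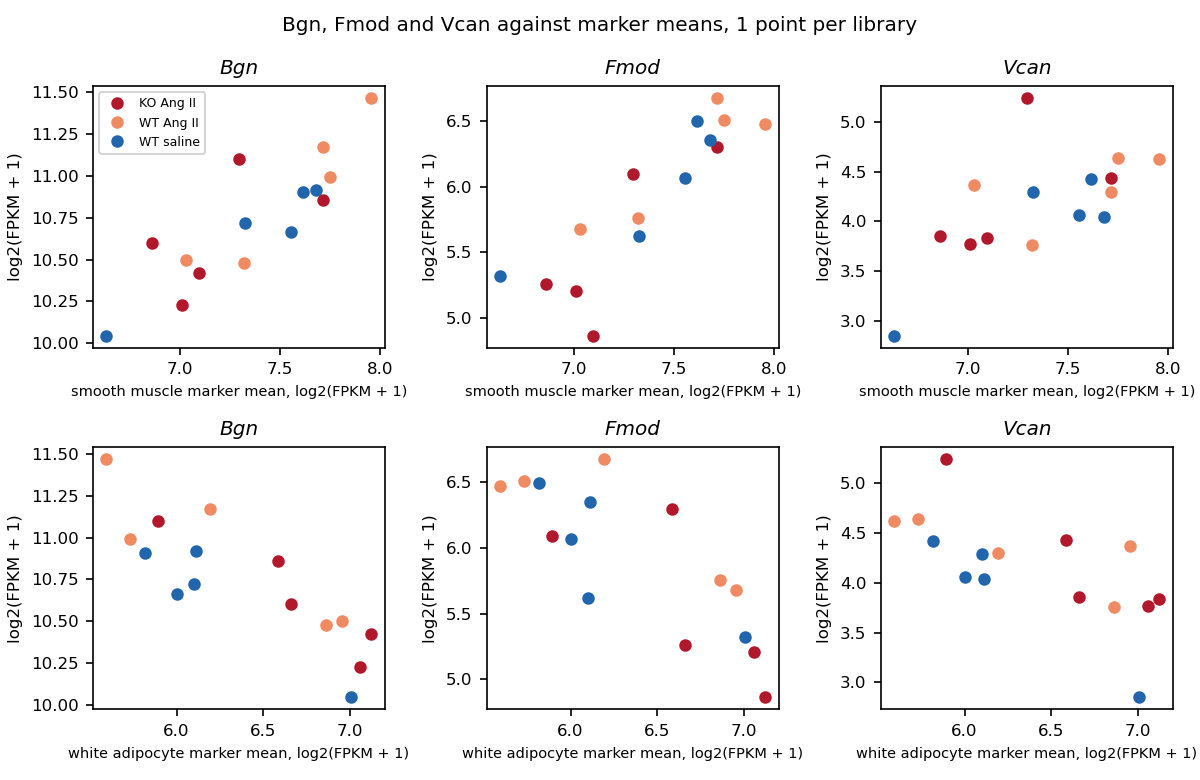
log2(FPKM + 1) of Bgn, Fmod and Vcan on the y axis against the mean log2(FPKM + 1) of smooth muscle markers (top) and white adipocyte markers (bottom) on the x axis, 1 point per library, coloured by group. Libraries with more smooth muscle signal have more Bgn and Fmod in each group, and libraries with more white adipocyte signal have less of all 3.

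WTNS_373 had the lowest Bgn, Aspn, Fmod, Lum, Ogn, Vcan and Acan of its group, with the lowest smooth muscle sum (5732 FPKM) and the highest white adipocyte sum (7984 FPKM) in it. The genes most like each proteoglycan over the 15 libraries, with group means taken off, are given as a description. For Bgn these were Igfbp7 (r = 0.979), Sod3, the extracellular superoxide dismutase (0.962), and Xk (0.955). Fmod was nearest to Creb3l1 (0.945), Aldh1l2 (0.936) and Zik1 (0.935), and Vcan to Gadd45b (0.941), Pla2g4a (0.923) and Prep (0.898). For Ogn they were Gstm2 (0.967), Fbln7 (0.965) and Pard3b (0.961), and for Lum Cpxm1 (0.945), Ero1lb (0.917) and Egflam (0.894). Aspn was nearest to Sdad1 (0.91), Uba7 (0.892) and Zranb3 (0.863), and Acan to Tmx4 (0.909), Emb (0.879) and Mark1 (0.878). Prelp (Dpm2 0.827, Bud31 0.827) and Hspg2 (Mroh1 0.791, Gda 0.783, Setd2 0.765) had the weakest nearest genes.

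The rest of the proteoglycan pathway was read from 9 lists of 140 genes, 99 of them tested, and 0 of 99 passed in any comparison. In KO Ang II relative to WT Ang II, 60 of 99 differences were negative (60.6%, beside 51.4% of all genes) and 6 had an unadjusted p under 0.05 (6.06%, beside 7.94%). In KO Ang II against WT saline 58 of 99 were positive (58.6%, beside 52.7%), with 14 such p-values (14.1%, beside 8.37%). In WT Ang II against WT saline 81 of 99 were positive (81.8%, beside 52.6% of all genes), with 8 such p-values (8.08%, beside 4.88%) and a smallest adjusted p of 0.935. Macrophage markers also had positive differences there, 8 of 8 with a median of 0.56 and 0 passing. An unadjusted limma p under 0.05 was reached by 5 of these 8, beside 4.88% of all genes. The macrophage marker sums did not overlap, at 335.8 to 468.7 FPKM in WT Ang II against 226.9 to 331.3 FPKM in WT saline. Among all genes 0.996% did not overlap there, a share of single genes that is no measure for a sum of 8. Positive differences also made up 8 of 9 for smooth muscle, 8 of 9 for endothelium and 8 of 10 for adventitial fibroblast markers. They were 1 of 6 for brown adipocyte, 2 of 7 for white adipocyte, 0 of 7 for skeletal muscle and 1 of 9 for sympathetic neuron markers. The part of any of these cell types in the 81 of 99 was not tested. Members of a list share samples and sources, so these counts carry no test.

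Among the other leucine-rich proteoglycans, decorin (Dcn), the nearest relative of biglycan, averaged 848 ± 465 FPKM in KO Ang II, 1089 ± 365 in WT Ang II and 983 ± 54.8 in WT saline. It thus stood between Bgn and Ogn in each group. Leading genes are those with the highest mean over the 15 libraries. In the list of large or basement membrane proteoglycans and related proteins these were Smoc1 and Cspg4. Smoc1, a calcium-binding matrix protein, had 93.1 ± 19.1, 117 ± 27.9 and 105 ± 25 FPKM in the same order. Cspg4, the chondroitin sulfate proteoglycan of mural cells, had 82.5 ± 30.0, 101 ± 31.6 and 79.1 ± 17.7 FPKM. In KO Ang II alone, Col18a1, which encodes a basement membrane collagen with heparan sulfate chains, had a mean of 89.5 ± 87.0 FPKM, above that of Cspg4. At the cell surface syndecan 4 (Sdc4) and glypican 3 (Gpc3), which carry heparan sulfate, led with 66.2 ± 33.9 and 42.9 ± 11.96 FPKM in KO Ang II, 91.1 ± 20.3 and 57.2 ± 14.2 FPKM in WT Ang II, and 82.1 ± 22.4 and 58.6 ± 9.13 FPKM in WT saline. Each of these is the mean ± SD of 5 libraries, and none passed the limma test.

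Hyaluronan receptors Stab1 and Lyve1 were the leading genes of their list, and Lyve1, a marker of lymphatic endothelium and some macrophages, averaged 24.2 ± 6.94 FPKM in KO Ang II, 20.6 ± 19.4 in WT Ang II and 7.81 ± 11.02 in WT saline (difference 2.60 for KO Ang II against WT saline, limma adjusted p = 0.548). Among the enzymes that build the chains, the leading genes were B3gat3 and Impad1 for the linkage and sulfate supply, Chpf and Csgalnact2 for chondroitin sulfate, Ndst1 and Sulf1 for heparan sulfate, and B4galt1 and Fut8 for keratan sulfate. Sulf1, which removes sulfate from heparan sulfate outside the cell, averaged 55.4 ± 20.7 FPKM in KO Ang II, 49.1 ± 10.1 in WT Ang II and 45.9 ± 10.5 in WT saline. Adamts1, a protease that cleaves versican and aggrecan, averaged 57.5 ± 37.6, 72.3 ± 20.6 and 77.3 ± 39.7 FPKM, and Hexa, a lysosomal enzyme, 62.8 ± 10.1, 73.0 ± 11.3 and 67.5 ± 2.47 FPKM (SD, n = 5 each). By list, the negative differences in KO Ang II relative to WT Ang II, beside 51.4% of all genes, were 5 of 6 for the other leucine-rich proteoglycans, 6 of 9 for the large and basement membrane ones and 6 of 11 for those of the cell surface. They were 2 of 5 for hyaluronan and its binding proteins and 19 of 24 for proteases and breakdown enzymes. Among the chain-building enzymes they were 6 of 12 for linkage, 7 of 14 for chondroitin sulfate, 7 of 12 for heparan sulfate and 2 of 6 for keratan sulfate. The 24 proteases and breakdown enzymes had 21 positive differences in WT Ang II against WT saline, a comparison that shares the WT Ang II libraries.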

How the data were processed

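Per the labels' protocols, TRIzol was used for extraction and 1 µg of total RNA went into a NEBNext Ultra library. The submitters' processing notes name bcl2fastq, FastQC, fastp and mm10, while the sources used here name no aligner or quantifier. The deposited values are FPKM per transcript made by the authors, a unit read from the values themselves: 97.9% to 99.09% of values below 50 reads lay within 0.05 of a whole read over the 20 libraries. Ensembl transcripts were named and placed with GENCODE M21 (GRCm38), and FPKM were summed per gene, an unlisted transcript counting as 0. Every WT library listed 49773 transcripts, 32654 of them Ensembl, and every KO Ang II library 49714, 32945 of them Ensembl. The listed transcripts of the 9 genes were in both lists. Comparisons of KO Ang II with WT thus also differ in the list, and label and list cannot be told apart there. Of 15346 genes, 14604 had a listed transcript in both the WT and the KO Ang II libraries. The 12645 of these whose mean over the 15 libraries reached 1 FPKM were tested with limma 3.58.1 (R 4.3.3, trend and robust), with all 3 groups in 1 model. Benjamini-Hochberg adjustment ran over all genes tested (threshold 0.05), and values entered as log2(FPKM + 1). On this scale the differences of low genes are understated. Single genes also had an exact two-sided permutation test, and relations between genes were permuted 100000 times within groups. The limma step was tested on simulated data. Alternatives were another pseudocount, filter, scaling, weighting, reads recovered from the FPKM steps, marker covariates and leaving out libraries. Members, lists and the rule for named genes were chosen with earlier results of these data known. That rule names the 9 genes, Dapk1, the 2 most abundant genes of each list where none passed, and the 3 nearest genes of each proteoglycan, of which 1 is not reported here. Overlapping transcripts can share reads, and no source used here states strand-specific counting. RefSeq supplied the promoters (GRCm38.p6).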

Additional observations from a re-analysis of the deposited data

Results flagged for a closer look

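In 72 groups of 5 libraries, 6 held a value whose gap to the nearest other exceeded 0.71 of the group's range. Chance gives about 1 such group in 20 where groups are independent and normally spread. Here genes were counted beside their own transcripts, so the count carries no test. KOAngII612 gave 3 of the 6 values, with 103.49 FPKM of Prelp, the same 103.49 FPKM for its coding transcript Prelp-201, and 7.07 FPKM of Vcan-206, the versican form with the 5217 nt exon alone. Each was far above the other 4 libraries of KO Ang II. KOAngII560 had 402.7 FPKM of Ogn, far above the 169.6 to 186 FPKM of the others. WTNS_373 had 0.944 FPKM of Acan, far below the 4.11 to 4.94 FPKM of the others. In WTAng_II536, Vcan-208, the 3′ transcript, was at 3.31 FPKM, far below the 5.82 to 6.57 FPKM of the rest.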

How the results depend on the processing

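No paired analysis was possible because the groups share no animal numbers. None of the 9 genes or 18 transcripts passed under any alternative run (smallest adjusted p 0.126, for Ogn with sample quality weights). Over all settings, 553 of 585 differences of the 9 genes kept their sign and 32 turned. For KO Ang II against WT saline the count of all genes called was 30 with sample quality weights, 0 without animals numbered below 500, 1 with marker means as covariates, and 7 to 15 with 1 library left out (7 without KOAngII537, 8 without WTNS_547). For KO Ang II relative to WT Ang II it was 6 against the 2 WT Ang II libraries with intestinal transcripts and 0 to 7 with 1 library left out (7 without WTAngII580, 2 without WTAngII581). For WT Ang II against WT saline it was 2 among libraries without intestinal transcripts and 0 to 1 with 1 left out (1 without WTNS_550). The cause was not tested.

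With marker covariates the sign turned for WT Ang II against WT saline in Bgn (-0.11), Fmod (-0.25) and Lum (-0.0347), for KO Ang II relative to WT Ang II in Bgn (0.18), Vcan (0.57) and Lum (0.20), and for KO Ang II against WT saline in Bgn (0.0694). With sample quality weights it turned in Aspn (0.0406, KO Ang II relative to WT Ang II), Vcan (-0.0209) and Lum (-0.0251, both against WT saline), and with reads recovered from FPKM in Hspg2 (-0.41, WT Ang II against WT saline), Vcan (0.0589, KO Ang II relative to WT Ang II) and Acan (-1.45, KO Ang II against WT saline). Leaving out animals numbered below 500 turned Fmod (-0.0861, WT Ang II against WT saline) and Acan (-0.0308, KO Ang II against WT saline), and a pseudocount of 0.1 turned Acan (-0.0598) there. The intestinal split turned Prelp (-0.77) and Ogn (0.0041) for WT Ang II against WT saline and Acan (-0.0581) for KO Ang II relative to WT Ang II. With 1 library left out, the range was -0.11 to 1.58 for Prelp and -0.43 to 0.38 for Acan (WT Ang II against WT saline), -0.36 to 0.0036 for Vcan, -0.12 to 0.0438 for Aspn and -0.0332 to 1.11 for Acan (KO Ang II relative to WT Ang II), and -0.16 to 0.0946 for Bgn and -0.0652 to 0.29 for Lum (KO Ang II against WT saline). The sign turned without WTNS_550 for Prelp, WTAng_II536 for Acan in both, KOAngII537 for Vcan, WTAng_II536 or KOAngII612 for Aspn, KOAngII560 for Lum, and KOAng_II402, KOAngII537, KOAngII628, WTNS_369, WTNS_523 or WTNS_547 for Bgn. The causes were not tested.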
